A study of Mus musculus with 16 samples.

Results

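The BCL2 family decides whether a cell opens the outer membrane of its mitochondria and dies. Pro-survival members such as Bcl2, Bcl2l1 and Mcl1 bind and restrain the pore-forming members Bax and Bak1, and the BH3-only members, among them Bcl2l11, Bad and Bid, relieve that restraint or activate the pore formers. In lymphocytes, Bcl2 and Mcl1 keep resting cells alive, and Bcl2l11, which encodes Bim, is required for the death of many autoreactive thymocytes and of activated T cells. The account covers 8 genes of the family, Bcl2, Bcl2l1, Bcl2l11, Mcl1, Bax, Bak1, Bad and Bid, through all probe sets that the platform annotation pairs with 1 of these symbols. This gave 13 of the 12422 non-control probe sets, covering 7 of the 8 genes: 3 for Bcl2, 3 for Bcl2l11, 2 for Bcl2l1, 2 for Bad and 1 each for Mcl1, Bak1 and Bid. No probe set was paired with Bax in the annotation used, so Bax was not analysed here. No filter on low values was applied, and all 13 were tested.

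The study set innate-like against adaptive lymphocytes of the mouse on 16 single-colour arrays in 6 sorted groups. NKT cells, T cells that carry the natural killer marker NK1.1, came from the spleen of wild-type C57BL/6 mice by a CD3+CD4+NK1.1+ gate (NKT, n = 3) and were set against CD4 T cells without NK1.1 from the same organ and strain (CD4T, n = 3). T cells with CD8αα (CD8aaT, TCRb+CD8a+CD8b-, n = 3) and with CD8αβ (CD8abT, TCRb+CD8a+CD8b+, n = 3) both came from RTOC, the usual abbreviation for reaggregate thymic organ culture. The labels say that the CD8aaT cells were selected with 10 mM of the agonist Smcy and the CD8abT cells with 100 nM, so lineage and agonist dose cannot be told apart, and whether the larger unit is a slip is not known. Peritoneal B1 cells (B1, CD11b+ with high IgM and intermediate IgD, n = 2) were set against splenic B2 cells (B2, CD11b- with intermediate IgM and high IgD, n = 2), both from wild-type C57BL/6 mice, so cell type and organ cannot be told apart in that pair. The labels give no strain or age for the RTOC cells and no age for the mice.

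Values are log2 of the deposited intensity of a probe set, and a difference is the innate-like minus the adaptive group on that scale, with the standard error of the fit. A difference was called when limma's p-value, adjusted by Benjamini-Hochberg over 12422 probe sets, was under 0.05. Array medians lay between 49.6 and 54.1 in the NKT and CD4T arrays, 30.4 and 31.8 in the CD8aaT and CD8abT arrays and 69.3 and 76.2 in the B1 and B2 arrays, so levels were compared within a pair, and between pairs only as the percentile of a probe set on its own array. Genes of the gates followed the labels in part. The difference was -5.51 for Cd8b1 in CD8aaT cells and -1.25 for Ighd in B1 cells, both called. Cd8a was also called lower in CD8aaT cells (-0.80), although both gates of that pair take CD8a+ cells. The CD11b gene Itgam stood at 5.37 in B1 and 5.36 in B2 cells. None of the gate and lineage probe sets was called in the NKT pair. In bulk samples fewer cells of a type and less RNA per cell cannot be told apart. The number of arrays limits the precision.

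Across the 13 member probe sets the only call in the 3 pairs was that of 1 Bcl2l11 probe set, which was higher in CD8aaT than in CD8abT cells. A probe set shared by copies of Bcl2a1, a family gene outside these members, was called in NKT and CD8aaT cells and is described below. In NKT against CD4T cells 0 of the 13 member probe sets were called, while 1.63% of all probe sets were. In CD8aaT against CD8abT cells 1 of the 13 was called, beside 0.185% of all probe sets. In B1 against B2 cells 0 of the 13 were called, beside 1.14% of all. At an unadjusted p under 0.05 the counts of member probe sets were the same, 0 in NKT, 1 in CD8aaT and 0 in B1 cells, and all probe sets at that level numbered 772, 749 and 594. The median difference over the 13 was -0.05 in NKT, -0.07 in CD8aaT and -0.10 in B1 cells, against -0.03, -0.05 and -0.05 over all probe sets tested. In a fit that blocks on replicate number, 0 members were called in the NKT pair (4.84% of all probe sets), 1 in the CD8aaT pair (3.2%) and 0 in the B1 pair (2.84%).

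**Figure D1:**
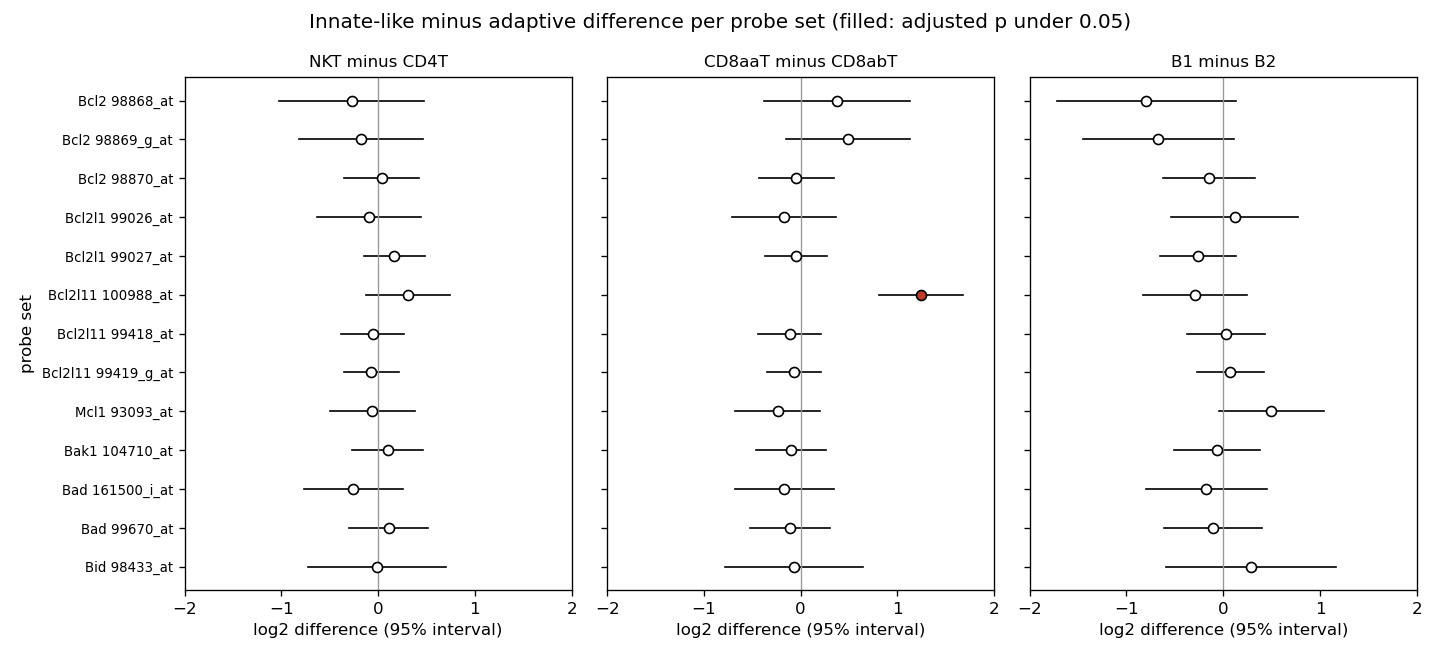
Log2 difference (x axis, innate-like minus adaptive) of the 13 BCL2 family probe sets (rows) in the 3 pairs, with lines for the 95% interval and a filled point for an adjusted p under 0.05. The brightest Bcl2l11 probe set lies at 1.24 in CD8aaT minus CD8abT, and every other interval in the 3 panels holds 0.

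Bcl2l11, the gene of the BH3-only protein Bim, was higher in CD8aaT than in CD8abT cells on its brightest probe set, 100988_at. The values were 8.35, 8.28 and 8.73 on the 3 CD8aaT arrays, against 6.80, 7.16 and 7.68 on the 3 CD8abT arrays. All CD8aaT arrays lay above all CD8abT arrays, and 11.3% of all probe sets had groups that did not overlap in this pair. The difference was 1.24 ± 0.20 (SE, n = 3 against 3), which is 2.37-fold with a 95% interval from 1.75 to 3.20 (adjusted p = 0.0262). Between arrays of the same replicate number the CD8aaT array was higher by 1.55, 1.13 and 1.05. With replicate number blocked, limma's adjusted p was 0.0007.

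The call stood in 16 of 28 alternative settings, and the difference was above 0 in all 28. It was lost with the arrays of these 2 groups alone (adjusted p = 0.42) and without any 1 of 5 arrays: NKT replicate 3, CD8abT replicates 1 and 2, and CD8aaT replicates 2 and 3 (adjusted p up to 0.133, differences from 1.04 to 1.33). The beta-actin 3'/5' signal ratio, a measure of RNA quality, was lower on the CD8aaT arrays (5.8, 5.76 and 5.15) than on the CD8abT arrays (6.57, 11.6 and 7.92). With that ratio as a covariate the difference kept its size, 1.24 ± 0.25, and was no longer called (adjusted p = 0.151). The Gapdh 3'/5' signal ratio was 20.9, 17.6 and 7.37 on CD8aaT arrays, against 24, 30.4 and 9.47 on CD8abT arrays. On the arrays of the other pairs it lay between 5.11 and 8.48, and its part in the result was not tested. The 18S control signal was 66.5, 273 and 249 on CD8aaT arrays and 129, 857 and 716 on CD8abT arrays, and its part was not tested either.

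The RefSeq promoter table (build GRCm38.p6) holds 2 windows of 300 bases for Bcl2l11, both on the forward strand of chromosome 2. Their sequence is shown because this gene carries the called difference. Another reason is that Foxo3, a forkhead factor known to activate it, is among the regulators described below. In CD8aaT against CD8abT cells the Foxo3 difference was 0.002 ± 0.26, not called with or without the replicate block. The part of Foxo3 in the Bcl2l11 values was not tested. Each window runs 5′ to 3′ across an annotated start, and capitals mark the forkhead core GTAAACA and the GC box GGGCGG, searched on both strands.
Bcl2l11, first start, chr2:128125788-128126087: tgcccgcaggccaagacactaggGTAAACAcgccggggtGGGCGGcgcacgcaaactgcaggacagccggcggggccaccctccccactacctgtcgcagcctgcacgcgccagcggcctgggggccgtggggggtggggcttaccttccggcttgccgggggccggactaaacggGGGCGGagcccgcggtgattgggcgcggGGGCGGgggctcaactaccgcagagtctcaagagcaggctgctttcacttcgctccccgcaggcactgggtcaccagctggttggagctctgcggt
Bcl2l11, second start, chr2:128127325-128127624: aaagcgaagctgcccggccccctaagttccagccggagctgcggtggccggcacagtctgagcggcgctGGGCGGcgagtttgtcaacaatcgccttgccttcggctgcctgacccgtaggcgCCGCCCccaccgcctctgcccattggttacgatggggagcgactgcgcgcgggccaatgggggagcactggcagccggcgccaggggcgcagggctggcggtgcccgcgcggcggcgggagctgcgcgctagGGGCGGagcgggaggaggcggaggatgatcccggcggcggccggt
The first window holds 1 match to the forkhead core, at base 24, and the second holds 0. Each window holds 3 matches to the GC box. Of 32851 promoter windows of this length in the table, 3.65% hold the forkhead core and 35.7% the GC box. A match is a description of these letters and not a bound site.

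The other probe sets of Bcl2l11 did not follow the brightest one. Probe set 99418_at had 4.23, 4.23 and 4.44 on CD8aaT arrays, against 4.54, 4.26 and 4.45 on CD8abT arrays. Probe set 99419_g_at had 3.79, 3.97 and 3.80 on CD8aaT arrays, against 3.97, 3.83 and 3.96 on CD8abT arrays. Their differences were -0.12 ± 0.15 and -0.07 ± 0.13, with 95% intervals that ended at 0.21 for both, below the lower end of 0.80 for 100988_at. Both lay between percentiles 23.0 and 40.3 on all CD8aaT and CD8abT arrays, while 100988_at lay between 83.7 and 96.0. After the mean of each pair was removed, 99418_at and 99419_g_at correlated with each other at r = 0.701 over the 16 arrays and with 100988_at at -0.282 and -0.341, a description over arrays that share their groups. Averaged over its 3 probe sets the gene was 0.35 ± 0.12 higher in CD8aaT cells and was not called (adjusted p = 0.535). Which transcripts each probe set detects was not analysed here.

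**Figure D2:**
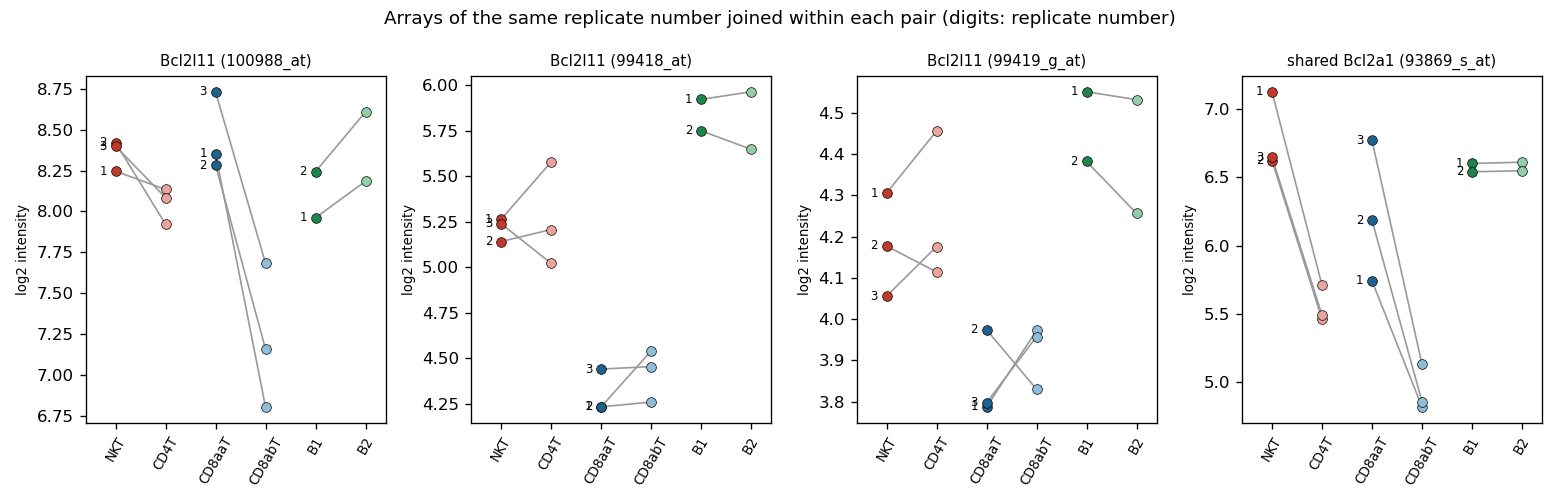
Log2 intensity (y axis) of the 3 Bcl2l11 probe sets and of a probe set shared by Bcl2a1 copies, with points for arrays, digits for replicate numbers and lines joining arrays of the same number within a pair. On 100988_at all 3 CD8aaT arrays lie above all 3 CD8abT arrays, and on the shared Bcl2a1 probe set the CD8aaT arrays lie above the CD8abT arrays and the NKT arrays above the CD4T arrays.

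In the other pairs the same Bcl2l11 probe set did not pass the test. On 100988_at NKT arrays had 8.25, 8.42 and 8.40, against 8.13, 7.92 and 8.08 on CD4T arrays. These groups did not overlap, as in 12.2% of all probe sets, and the difference was 0.31 ± 0.20 (95% interval -0.13 to 0.75). B1 arrays had 7.96 and 8.24, against 8.18 and 8.61 on B2 arrays, so the groups overlapped, and the difference was -0.29 ± 0.25 (95% interval -0.83 to 0.24). The CD8aaT difference exceeded the B1 difference by 1.54 ± 0.32 (adjusted p = 0.0449, where 0.733% of all probe sets were called), a call that stood in 5 of 27 alternatives. It was lost without any 1 array other than CD8abT replicate 3 (differences from 1.32 to 1.75, adjusted p up to 0.319). The NKT difference minus the CD8aaT difference was -0.93 ± 0.29 and was not called (adjusted p = 0.352, 0.692% of all called). With the replicate block that contrast was called (adjusted p = 0.0154, 3.02% of all called). The NKT difference minus the B1 difference was 0.60 ± 0.32 (95% interval -0.09 to 1.30) and was not called, beside 1.35% of all probe sets. By percentile the order was CD8aaT (94.7), NKT (90.1), CD4T (87.8), B2 (87.5), CD8abT (86.9) and B1 (84.0), and of these neighbours only CD8aaT and NKT had ranges that did not overlap.

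The probe sets most like 100988_at over the 16 arrays, after the mean of each pair was removed, were those of Usp19 (r = 0.868), Car2 (r = 0.853) and Wtap (r = 0.845). Of these, Car2, which encodes a carbonic anhydrase, was called in CD8aaT cells (2.56), while Usp19 (0.46) and Wtap (0.47) were not. In B1 cells the difference of Car2 was -1.54, beside -0.27 for Usp19 and -0.02 for Wtap. These genes were picked by this correlation, which still holds the differences within pairs. Directions shared with 100988_at are therefore no separate result.

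The pro-survival genes came next by role. Bcl2, the founding inhibitor of mitochondrial death, was measured by 3 probe sets. On 98868_at the NKT arrays had 7.81, 8.86 and 8.89, against 8.15, 9.06 and 9.18 on CD4T arrays. In both groups replicate 1 was the low array, about 1 log2 unit under the others, and each NKT array lay below the CD4T array of its number. The groups overlapped, and the difference was -0.28 ± 0.35 (95% interval -1.03 to 0.48). The CD8aaT arrays had 9.85, 9.39 and 9.18, against 9.12, 9.66 and 8.51 on CD8abT arrays, a difference of 0.38 ± 0.35. These groups overlapped, replicate 2 being lower in CD8aaT than in CD8abT cells.

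In B cells Bcl2 lay lower in B1 than in B2 cells without passing the test. On 98868_at B1 arrays had 8.34 and 8.02, against 8.85 and 9.09 on B2 arrays. On 98869_g_at they had 8.37 and 8.50, against 8.84 and 9.37 on B2 arrays. On both probe sets the groups did not overlap, as in 32.3% of all probe sets in this pair, and the differences were -0.79 ± 0.43 and -0.67 ± 0.37 (95% intervals -1.72 to 0.13 and -1.45 to 0.11, limma's adjusted p = 1 for both). With the replicate block they were not called either (adjusted p = 0.107 and 0.167).

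The Bcl2 probe sets fell into 2 kinds. Probe sets 98868_at and 98869_g_at moved together (r = 0.952 over 16 arrays after the mean of each pair was removed) and had differences of the same sign in all 3 pairs. The third, 98870_at, ran the other way (r = -0.528 and -0.577), and its differences were 0.04 ± 0.18 in NKT, -0.05 ± 0.18 in CD8aaT and -0.14 ± 0.22 in B1 cells. In the NKT and CD4T arrays its replicate 1 was the high array (7.82 against 7.64 and 7.64 in NKT cells, and 8.14 against 7.44 and 7.41 in CD4T cells), where that of 98868_at was the low one. Replicate 1 of these groups also had an 18S control signal of 675 in NKT and 1326 in CD4T cells, against 52.7 to 59.2 on their other arrays, and its part in these values was not tested.

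By percentile Bcl2 on 98868_at stood in the order CD8aaT (97.6), CD8abT (97.0), CD4T (93.5), B2 (92.5), NKT (90.7) and B1 (85.0). Of these neighbours only CD8abT and CD4T had ranges that did not overlap.

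Mcl1, a short-lived pro-survival protein on which most lymphocytes depend, had 1 probe set. NKT arrays had 8.44, 8.57 and 8.70, against 8.16, 8.81 and 8.92 on CD4T arrays (difference -0.06 ± 0.21). CD8aaT arrays had 6.33, 7.07 and 6.72, against 6.83, 6.98 and 7.02 on CD8abT arrays (difference -0.24 ± 0.21). Both pairs of groups overlapped. In B1 cells it was 10.21 and 10.15, against 9.82 and 9.55 in B2 cells, with no overlap, as in 32.3% of all probe sets. The B1 difference was 0.50 ± 0.25 (1.41-fold, 95% interval of the log2 difference -0.05 to 1.04) and was not called (limma's adjusted p = 1, and 0.222 with the replicate block). As a percentile Mcl1 spanned the groups more than Bcl2, at 97.4 in B1, 96.1 in B2, 92.6 in CD4T, 91.7 in NKT, 84.3 in CD8abT and 80.2 in CD8aaT cells. The ranges of B1 and B2, of B2 and CD4T and of NKT and CD8abT arrays did not overlap, while those of CD4T and NKT and of CD8abT and CD8aaT did.

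Bcl2l1, which encodes Bcl-xL and, by another splice form, the pro-death Bcl-xS, had 2 probe sets. On 99027_at NKT arrays had 7.07, 7.53 and 7.48, against 7.32, 7.08 and 7.18 on CD4T arrays (difference 0.17 ± 0.15). CD8aaT arrays had 6.56, 6.57 and 6.34, against 6.71, 6.53 and 6.37 on CD8abT arrays (difference -0.05 ± 0.15). B1 arrays had 6.93 and 6.70, against 7.04 and 7.11 on B2 arrays (difference -0.26 ± 0.18). No call was made, and only the B1 and B2 groups did not overlap, as in 32.3% of all probe sets. Probe set 99026_at lay between percentiles 26.9 and 55.8 on all arrays, with differences of -0.10 in NKT, -0.17 in CD8aaT and 0.12 in B1 cells, and correlated with 99027_at at r = 0.191 over the 16 arrays. By percentile 99027_at stood in the order CD8abT (78.8), NKT (78.3), CD8aaT (77.4), CD4T (76.8), B2 (67.4) and B1 (63.1), and the ranges of CD4T and B2 and of B2 and B1 arrays did not overlap.

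Bak1, the measured pore-forming member, had no called difference. Its differences were 0.10 ± 0.17 in NKT, -0.10 ± 0.17 in CD8aaT and -0.07 ± 0.21 in B1 cells. NKT arrays had 7.87, 7.76 and 7.70, against 7.82, 7.53 and 7.69 on CD4T arrays. CD8aaT arrays had 7.17, 7.43 and 6.78, against 7.42, 7.35 and 6.91 on CD8abT arrays. B1 arrays had 7.64 and 7.62, against 7.72 and 7.67 on B2 arrays. The B1 and B2 groups did not overlap, as in 32.3% of all probe sets, by a margin under the spread of the B2 arrays. The 95% intervals ran from -0.27 to 0.46 in NKT, from -0.46 to 0.27 in CD8aaT and from -0.51 to 0.38 in B1 cells. By percentile Bak1 stood in the order CD8abT (87.1), CD8aaT (85.2), NKT (84.0), CD4T (83.7), B2 (78.3) and B1 (77.4), and the ranges of CD4T and B2 and of B2 and B1 arrays did not overlap.

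**Figure D3:**
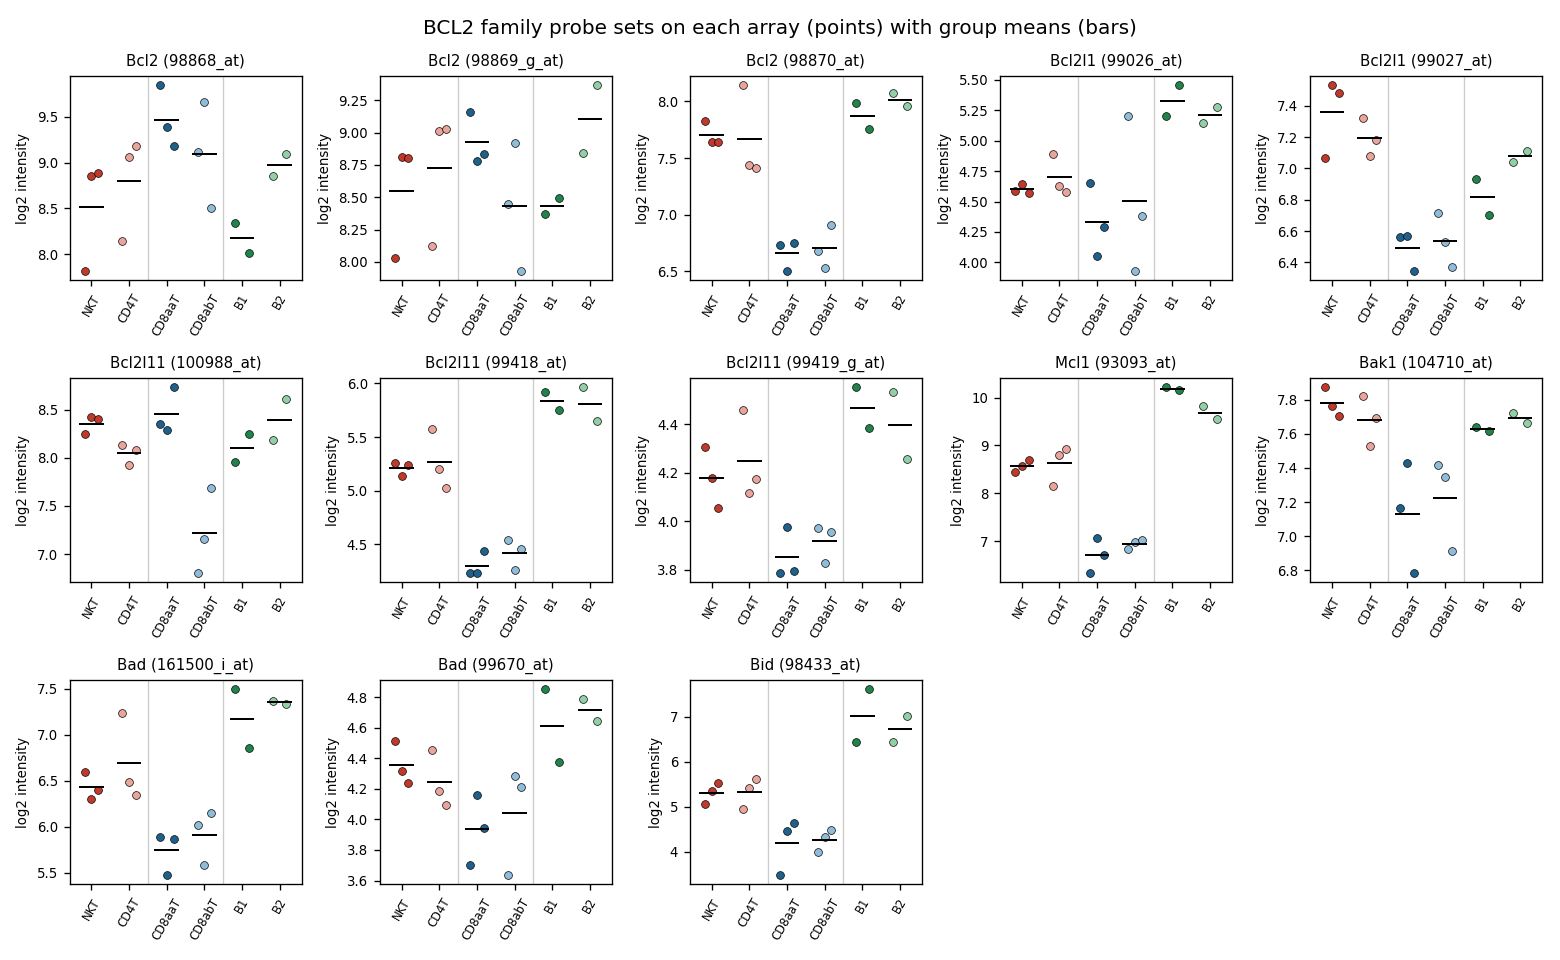
Log2 intensity (y axis, a scale of its own in each panel) of the 13 probe sets on the 16 arrays, with points for arrays, bars for group means and grey lines between the pairs. Levels differ between pairs together with the array medians, and the groups stand apart most clearly on Bcl2l11 100988_at in CD8aaT and CD8abT cells.

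Of the remaining BH3-only genes, Bid, which links death receptors to mitochondria once caspase 8 has cut it, spread widely within groups. B1 arrays had 6.43 and 7.61, against 6.44 and 7.02 on B2 arrays (difference 0.29 ± 0.41). NKT arrays had 5.05, 5.36 and 5.54, against 4.96, 5.43 and 5.61 on CD4T arrays (difference -0.02 ± 0.33). CD8aaT arrays had 3.49, 4.46 and 4.64, against 3.99, 4.33 and 4.49 on CD8abT arrays (difference -0.07 ± 0.33). The groups of each pair overlapped, and replicate 1 was the low array of all 6 groups. By percentile Bid was at 65.4 in B1 and 60.2 in B2 cells, at 43.4 in NKT and 43.0 in CD4T cells and at 32.8 in CD8aaT and 34.5 in CD8abT cells. The B2 and NKT ranges did not overlap, and the other neighbours in that order did.

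Bad, whose protein is held inactive by 14-3-3 proteins when survival signals phosphorylate it, had 2 probe sets and no call. On 161500_i_at NKT arrays had 6.60, 6.30 and 6.40, against 7.24, 6.49 and 6.35 on CD4T arrays (difference -0.26 ± 0.24). Without CD4T replicate 1, the highest array of the pair, the difference was 0.01. CD8aaT arrays had 5.89, 5.48 and 5.87, against 6.02, 5.58 and 6.15 on CD8abT arrays (-0.17 ± 0.24), and B1 arrays had 7.50 and 6.86, against 7.37 and 7.34 on B2 arrays (-0.17 ± 0.29). All 3 pairs of groups overlapped. Probe set 99670_at lay at or below percentile 36.8 on all arrays, with differences of 0.11 in NKT, -0.11 in CD8aaT and -0.10 in B1 cells.

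Beyond the 8 genes, 5 lists of other apoptosis genes held 54 measured genes on 74 probe sets with 1 symbol each. Of the 74, 1 was called higher and 0 lower in NKT cells, 0 in either direction in CD8aaT cells and 0 in either direction in B1 cells. Of all probe sets 1.63%, 0.185% and 1.14% were called in these pairs. The median difference of the 74 was 0.00 in NKT, 0.05 in CD8aaT and -0.04 in B1 cells, against -0.03, -0.05 and -0.05 over all probe sets. With the replicate block 4 were called higher in NKT cells, 4 in CD8aaT cells and 0 in B1 cells, and 0 were called lower in any pair. Of all probe sets 4.84%, 3.2% and 2.84% were called with the block in these pairs, in either direction.

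Among other BCL2 family genes (9 of 22 measured with a symbol of their own, on 12 probe sets) none was called in any pair, with or without the block. The largest difference was -0.57 for Bnip3, a mitochondrial BH3-only relative, in B1 cells. Bcl2l13 was 0.46 in NKT cells, and Bnip1 was -0.45 in B1 and -0.24 in CD8aaT cells, with none of these called. Bnip2 reached 0.40 in CD8aaT cells.

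Outside that count stood 3 probe sets of Bcl2a1, because the annotation pairs each with several symbols. Bcl2a1, known as A1, is a pro-survival gene with near-identical copies in the mouse that these probe sets cannot tell apart, and they were singled out after their values were seen. On 93869_s_at, paired with Bcl2a1a, Bcl2a1c and Bcl2a1d, NKT arrays had 7.12, 6.62 and 6.64, against 5.71, 5.46 and 5.49 on CD4T arrays. CD8aaT arrays had 5.74, 6.18 and 6.77, against 4.82, 4.86 and 5.13 on CD8abT arrays. B1 arrays had 6.60 and 6.54, against 6.61 and 6.55 on B2 arrays. The groups did not overlap in the NKT pair, as in 12.2% of all probe sets, or in the CD8aaT pair, as in 11.3%. In B cells they overlapped.

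The difference of this shared probe set was 1.24 ± 0.22 in NKT cells (2.37-fold, adjusted p = 0.00612) and 1.29 ± 0.22 in CD8aaT cells (2.45-fold, adjusted p = 0.0294), both called, and -0.01 ± 0.26 in B1 cells (95% interval -0.58 to 0.56). The NKT call stood in 27 of 27 alternatives and the CD8aaT call in 16 of 27. The CD8aaT call was lost in 11, and over the 27 its difference ranged from 0.79 to 1.54. Among the losses were the fit of the 2 groups alone (adjusted p = 0.42) and those without any 1 of 6 arrays. These arrays were CD4T replicate 2, NKT replicate 3, CD8abT replicates 1 and 2, and CD8aaT replicates 2 and 3 (differences from 1.03 to 1.32, adjusted p up to 0.128). With the block both T cell pairs exceeded the B1 difference (by 1.25, adjusted p = 0.0051, and by 1.30, adjusted p = 0.00714), and without it neither test was passed (adjusted p = 0.131 and 0.173).

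A second shared probe set, 102914_s_at, which the annotation also pairs with the unrelated gene Mthfs, pointed the same way. NKT arrays had 9.19, 8.51 and 8.42, against 7.41, 7.22 and 7.33 on CD4T arrays, and CD8aaT arrays had 6.59, 7.87 and 8.48, against 5.99, 5.79 and 6.18 on CD8abT arrays. Its differences of 1.39 ± 0.37 and 1.66 ± 0.37 did not pass the test (adjusted p = 0.107 and 0.126) and were called with the block (adjusted p = 0.0104 and 0.0111). They were called in 5 of 27 alternatives in NKT and 3 of 27 in CD8aaT cells, among them the fit without CD8aaT replicate 1 (1.39, adjusted p = 0.00992, and 2.19, adjusted p = 0.0058) and, for NKT cells, that without CD8aaT replicate 3 (adjusted p = 0.0418). In B1 cells the difference was -0.20 ± 0.45. The third, 102913_at, was dim (3.62 in NKT and 3.37 in CD4T cells) and was not called in any pair.

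Macrophages, which can express A1, could enter a sort, and some of their markers were higher in NKT cells. Of 23 probe sets of 14 macrophage markers 3 were called higher in NKT cells, Lyz2 (2.08), Mpeg1 (1.01) and Csf1r (0.60), on 1 probe set each. The summed intensity of all 23 was 2029 to 2198 in NKT and 1862 to 3009 in CD4T cells. The brightest of the 23, Ctss, weighs most in this sum. Its mean was 10.03 in NKT and 10.70 in CD4T cells, a difference of -0.66 that was not called. In CD8aaT cells 0 of 23 were called, with Lyz2 at -0.71 and the sum at 1484 to 1860, against 1031 to 1573 in CD8abT cells. With the block Ctss (0.85) and Fcer1g (0.43) were called higher and Lyz2 lower in CD8aaT cells. In B1 cells Lyz2 (2.29) and Mpeg1 (1.37) were called higher while the shared A1 probe set was at -0.01. No marker is listed at 0 on these arrays. The part of these markers in the A1 and Bcl2l11 values was not tested.

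The death machinery downstream of the mitochondria showed no call. Of 20 probe sets for 14 such genes, among them Apaf1, Cycs, Casp9 and Diablo, 0 passed in any pair with or without the block. The differences farthest from 0 were Cycs in B1 cells (0.85) and Vdac3 (0.58) and Vdac2 (0.51) in CD8aaT cells. Cycs encodes cytochrome c, the protein released through the pore, and the Vdac genes encode channels of the outer mitochondrial membrane. Of 8 probe sets for 5 inhibitors of apoptosis 0 were called in any pair. In CD8aaT cells Birc6 was 0.69, Birc2 0.49 and Birc5 0.31, and in NKT cells Birc6 was -0.54 and Birc3 0.35.

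In the death-receptor arm, 10 probe sets for 9 genes, Fasl was the call in NKT cells. Fasl encodes the ligand that triggers the receptor Fas, and its values were 9.91, 9.28 and 9.23 on NKT arrays, against 6.88, 6.36 and 6.46 on CD4T arrays. The difference was 2.91 ± 0.19 (adjusted p = 4.6e-07), and that in CD8aaT cells was 0.47 ± 0.19, called only with the block (adjusted p = 0.0388). The TNF receptor gene Tnfrsf1a was 0.71 ± 0.29 in NKT cells on 1 of 2 probe sets, called only with the block (adjusted p = 0.0226), and replicate 1 showed the smallest gap (7.56 in NKT against 7.33 in CD4T cells).

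Among 24 probe sets of 17 regulators of the family 0 were called without the block. Foxo3, the forkhead factor named above, had 7.70, 8.0 and 8.08 on NKT arrays, against 6.65, 7.17 and 7.20 on CD4T arrays. These groups did not overlap, as in 12.2% of all probe sets. The Foxo3 difference of 0.92 ± 0.26 was called with the block (adjusted p = 0.000207) and not without it (adjusted p = 0.14). Dynll2, a dynein light chain that holds the BH3-only protein Bmf on the cytoskeleton, was 0.87 in NKT and 1.07 in CD8aaT cells, both called with the block (adjusted p = 0.0137 and 0.0122). Il7r, the receptor chain through which interleukin 7 sustains Bcl2 in T cells, had 7.97, 9.45 and 7.68 on CD8aaT arrays, against 7.01, 6.63 and 6.33 on CD8abT arrays. Its difference of 1.71 ± 0.41 was called with the block (adjusted p = 0.0111) and not without it (adjusted p = 0.183). Without CD8aaT replicate 2, the highest array, it was 1.17. Ywhah, a 14-3-3 protein gene, was 0.91 ± 0.29 in CD8aaT cells and was called with the block (adjusted p = 0.0239) and without replicate 1 of every group (1.05, adjusted p = 0.00879). Without the block the adjusted p of these 4 genes, on the probe sets and in the pairs called with it, lay between 0.14 and 0.531.

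**Figure D4:**
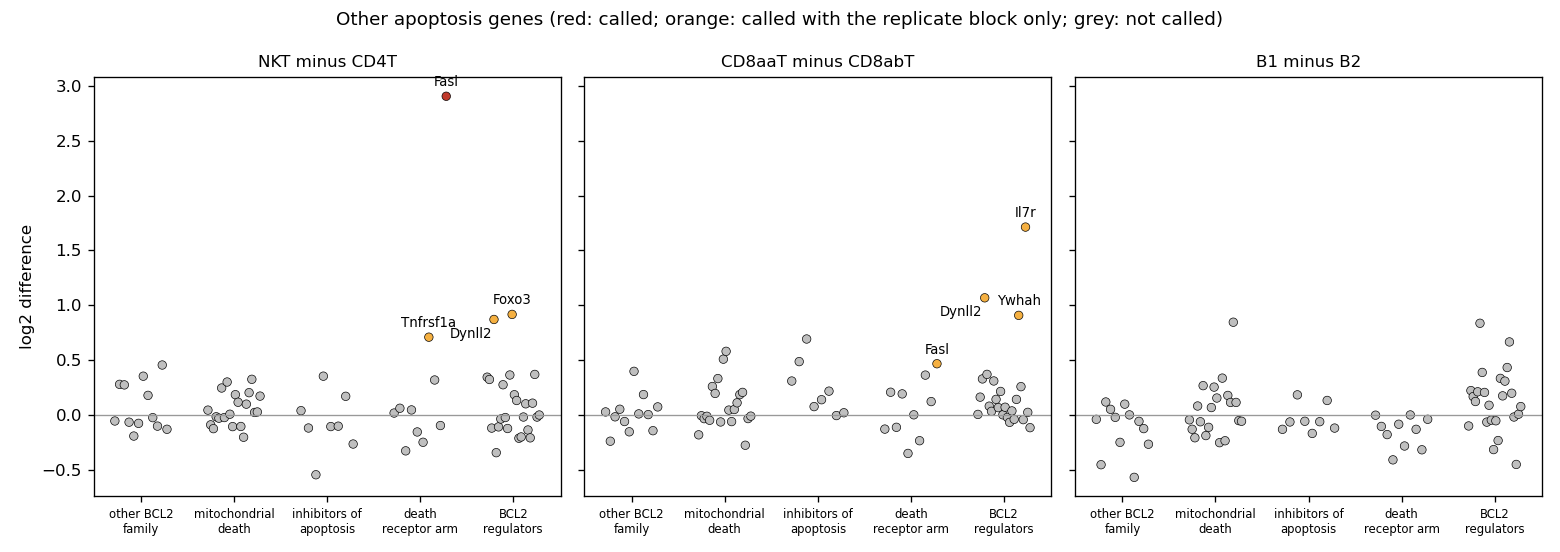
Log2 difference (y axis) of 74 probe sets of 54 other apoptosis genes in 5 lists (x axis) and the 3 pairs, 1 point per probe set, with the genes named that were called with or without the replicate block. Fasl in NKT cells stands at 2.91, the genes called with the block alone lie between 0.47 and 1.71, and no B1 point was called.

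In CD8aaT cells the markers of thymocytes and stroma did not pass the test either way. Of 11 probe sets for 7 double-positive thymocyte genes 0 were called, with a median difference of -0.31, and of 18 probe sets for 11 thymic stroma genes 0 were called, with a median of -0.08. Summed intensities of the thymocyte genes were 354 to 376 in CD8aaT and 414 to 642 in CD8abT cells. Those of the stroma genes were 550 to 732 in CD8aaT and 635 to 780 in CD8abT cells. The thymocyte sums did not overlap, and their part in the Bcl2l11 difference was not tested.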

How the data were processed

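RNA of sorted cells was amplified, labelled with biotin and hybridised, per the labels' protocols. The intensities deposited by the authors are on a linear scale, 1 per probe set and array, and were made with RMA, per the submitters' processing notes. The settings used, and the set of arrays each run of it covered, are not stated there. RMA compresses differences of dim probe sets. Of 12488 probe sets 66 controls were left out. Names came from the platform annotation, where 10833 probe sets have 1 symbol, 396 several and 1193 none.

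Log2 intensities were fitted with limma 3.58.1 in R 4.3.3 (lmFit, eBayes, two-sided, 6 group means over 16 arrays). The 3 pair differences and the differences between pairs were tested, each adjusted over 12422 probe sets. Replicates are called biological by the series, but no animals or sorts are named, and p-values reflect only how far these arrays spread. Members, lists and tests were chosen with earlier results of these data known. All member probe sets are named, and from the 5 lists of other apoptosis genes every called gene, or else up to 4 with the largest differences. Marker genes are named where a result touches them.

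Replicate numbers were taken to pair the T cell arrays, since deviations from group means correlated at 0.65 to 0.76 (NKT and CD4T) and 0.6 to 0.66 (CD8aaT and CD8abT) between same-numbered arrays, above the minimum of 0.1. The block was a term for each number within a pair. Alternatives were this block, offsets of 16 and 32, 2 other normalizations, a filter on dim probe sets, another prior variance, a minimum of 1.2-fold, the beta-actin ratio, averaged probe sets, subsets of arrays and each array left out. In simulated data the fit called 81, 82 and 71 of 100 changes of 1 log2 unit in the NKT, CD8aaT and B1 pairs. The noise was drawn separately for each array, so effects shared by same-numbered arrays were not simulated.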

Additional observations from a re-analysis of the deposited data

Results flagged for a closer look

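The Bcl2l11 difference on 100988_at was larger in CD8aaT against CD8abT cells than in B1 against B2 cells by 1.54 ± 0.32 (limma's adjusted p = 0.0449). By replicate number, 3 of 3 CD8aaT arrays lay above and 2 of 2 B1 arrays below the array of their number in the adaptive group. Whether these numbers pair the B cell arrays is not known. Without regard to number the B1 and B2 groups overlapped. On the other Bcl2l11 probe sets this contrast was -0.15 ± 0.24 (99418_at) and -0.14 ± 0.21 (99419_g_at), and neither was called.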

How the results depend on the processing

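Bcl2l11 on 100988_at stayed higher in CD8aaT cells under all 28 alternatives, with values from 0.35 to 1.48 and adjusted p from 0.0007 to 0.535. Its call was lost in 12: an offset of 32, quantile normalization, a minimum difference of 1.2-fold, the beta-actin covariate, replicate 1 of every group left out, the 2 groups alone, the mean of its probe sets, and 5 of the 16 fits without 1 array. Of the 13 member probe sets 0 were then called under the first 6 of these, and 0 to 1 with 1 array left out. Its excess over the B1 difference was called in 5 of 27 alternatives, and in 1 of 16 with 1 array left out. Depth is not defined for arrays, and dim probe sets carry little signal over background. The causes of these changes were not tested.

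Counts of all probe sets called moved as follows. In NKT minus CD4T, 202 became 601 with the replicate block, 114 with the minimum difference, 356 without replicate 1 of every group, and 134 to 242 with 1 array left out. In CD8aaT minus CD8abT, 23 became 398 with the block, 9 with an offset of 32, 11 with the minimum difference, 11 with the beta-actin covariate, 190 without replicate 1, 2 with the 2 groups alone, and 10 to 57 with 1 array left out. In B1 minus B2, 142 became 353 with the block, 214 with an offset of 32, 227 without replicate 1, 50 with the 2 groups alone, and 64 to 164 with 1 array left out. For the NKT difference minus CD8aaT difference, 86 became 375 with the block, 47 with the minimum difference, 363 without replicate 1, and 45 to 166 with 1 array left out. For the NKT difference minus B1 difference, 168 became 573 with the block, 256 with an offset of 32, 354 without replicate 1, and 101 to 218 with 1 array left out. For the CD8aaT difference minus B1 difference, 91 became 275 with the block, 54 with the minimum difference, 58 with the beta-actin covariate, 154 without replicate 1, and 35 to 102 with 1 array left out.

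The replicate block changed no member's call in a pair. Among the 5 lists of apoptosis genes, it changed no call other than those named beside their blocked values. Among the gate genes it added Cd4 (-0.64, adjusted p = 0.00947) and Cd5 (-0.95, adjusted p = 0.000836) in NKT cells and Cd5 (-0.92, adjusted p = 0.00438) in CD8aaT cells.

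Signs turned only for differences that were not called. Under quantile normalization Bid was 0.023 and Bcl2 98870_at -0.063 in NKT cells, and the shared Bcl2a1 probe set was 0.035 in B1 cells, and 0.042 in them with arrays centred on their medians. Without replicate 1 of every group, Bcl2l1 99026_at was 0.0054 and Bcl2l11 99418_at 0.076 in NKT cells, and Bid was 0.14, Bcl2l1 99026_at 0.015 and 99027_at 0.0070 in CD8aaT cells. With the beta-actin covariate, in CD8aaT cells, Bak1 was 0.033, Bad 0.013 (161500_i_at) and 0.15 (99670_at), Bcl2 98870_at 0.17 and Bcl2l11 99419_g_at 0.056.

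With 1 array left out, the ranges that crossed 0 in NKT cells were -0.43 to 0.015 for Bad 161500_i_at, -0.29 to 0.088 for Mcl1, -0.20 to 0.12 for Bid, -0.60 to 0.077, -0.47 to 0.085 and -0.090 to 0.28 for Bcl2 98868_at, 98869_g_at and 98870_at, and -0.18 to 0.10 and -0.14 to 0.035 for Bcl2l11 99418_at and 99419_g_at. In CD8aaT cells they were -0.25 to 0.074 for Bak1, -0.29 to 0.28 for Bid, -0.13 to 0.055 for Bcl2 98870_at, -0.46 to 0.17 and -0.13 to 0.043 for Bcl2l1 99026_at and 99027_at, and -0.31 to 0.012 for Bad 99670_at. In B1 cells they were -0.49 to 0.14 and -0.34 to 0.14 for Bad 161500_i_at and 99670_at, -0.30 to 0.87 for Bid, -0.0083 to 0.25 for Bcl2l1 99026_at, -0.13 to 0.19 and -0.065 to 0.21 for Bcl2l11 99418_at and 99419_g_at, and -0.040 to 0.023 for the shared Bcl2a1 probe set.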

Other observations

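The balance between a death and a survival gene of the family was read on each array as log2 of Bcl2l11 (100988_at) minus log2 of Bcl2 (98868_at), whose change between arrays, and not its level, can be read. In NKT cells it was 0.43, -0.44 and -0.49, against -0.01, -1.14 and -1.10 in CD4T cells, higher in the NKT array of each number. In CD8aaT cells it was -1.49, -1.11 and -0.45, against -2.32, -2.50 and -0.82 in CD8abT cells, again higher in the CD8aaT array of each number. In B1 cells it was -0.38 and 0.23, against -0.67 and -0.48 in B2 cells. Group means were -0.16 ± 0.52 in NKT and -0.75 ± 0.64 in CD4T cells (SD), -1.02 ± 0.53 in CD8aaT and -1.88 ± 0.92 in CD8abT cells, and -0.07 ± 0.43 in B1 and -0.57 ± 0.13 in B2 cells. The measure was chosen after the values were seen, no test was made, and the groups overlapped in both T cell pairs. In CD8aaT cells its direction rests on 100988_at. Bcl2l11 on 99418_at and 99419_g_at differed there by -0.12 and -0.07, below the 0.38 of Bcl2 on 98868_at. In NKT cells these 2 probe sets (-0.05 and -0.07) lay above Bcl2 on 98868_at (-0.28), and so they did in B1 cells (0.03 and 0.07, against -0.79). The direction also depends on the Bcl2 probe set. On 98870_at Bcl2 differed by 0.04 in NKT, -0.05 in CD8aaT and -0.14 in B1 cells. Against it 100988_at lay lower in B1 cells (-0.29) and higher in NKT (0.31) and CD8aaT cells (1.24). Probe sets 99418_at and 99419_g_at lay below it in both T cell pairs and above it in B1 cells.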
